A study of Mus musculus with 7 samples.

Results

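The ligands and receptors of the epidermal growth factor (EGF) family were measured on 7 microarrays of mouse mammary gland kept in organ culture. The 10 genes taken as members were the ligands Egf, Areg, Ereg, Hbegf, Tgfa, Btc and Nrg1 and the receptors Egfr, Erbb2 and Erbb3. Of these, 8 had a gene probe that could be named through its RefSeq accession, namely 6 ligands and 2 receptors, out of 13971 genes named on the array in the same way. No probe was matched to Nrg1 or Erbb3, which were not analysed here. The rule lists these genes by name and uses no measured value, although earlier results of these data were known when they were chosen.

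EGF family ligands are made as membrane-anchored precursors and are released by metalloproteases at the cell surface. They bind ERBB receptors, which pair with each other and act through the RAS-MAP kinase and PI3 kinase pathways. EGF, amphiregulin, transforming growth factor α, heparin-binding EGF, betacellulin and epiregulin all bind EGFR, ERBB2 has no known ligand of its own, and the neuregulins bind ERBB3 and ERBB4. In the mammary gland amphiregulin is a known target of estrogen receptor α (ERα) and is needed for ductal growth at puberty.

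The study asked how loss of ERα or ERβ alters normal growth and carcinogen response of the gland, and whether EGF can stand in for estradiol. Each of the 7 groups was measured on 1 whole-genome CodeLink array (oligonucleotide probes, a single dye), so no difference given here has a replicate check and no p-value is given. All glands came from female mice aged 4 weeks. Glands of 24-day cultures had 10 days in insulin, prolactin, aldosterone and hydrocortisone, followed by 14 days in insulin alone. The wild-type (WT) mice were C57 and the knockout mice, αERKO (Esr1 deleted) and βERKO (Esr2 deleted), had a mixed C57BL6/129SV background, so genotype and background cannot be told apart. The WT glands cultured for 24 days with 7,12-dimethylbenz[a]anthracene (DMBA), a polycyclic hydrocarbon carcinogen, were compared with αERKO and βERKO glands of 24-day cultures; each of these arrays held RNA pooled from 5 mice. A further 2 arrays held C57 glands cultured for 10 or 24 days without DMBA, and 2 held Balb/c glands cultured for 24 days with or without Vitamin D5, an analog of vitamin D whose dose the labels do not give. The general protocol gives DMBA at 2 µg/ml for 24 h on Day 3, and the paper describes the WT, αERKO and βERKO glands used for the arrays as DMBA-treated. The titles of the knockout and Balb/c samples do not name DMBA. The sample descriptions state that mice first received estrogen (1 µg) together with progesterone (1 mg) over 9 days. The paper instead states EGF (25 ng) together with progesterone over 5 days for the WT, αERKO and βERKO glands used for the arrays. For the other 4 arrays the sample descriptions are the only source used here. According to the methods, the WT and βERKO glands carried mammary lesions (MAL), while αERKO glands had none. The methods add that this left no αERKO material to take for molecular work. The discussion of the paper instead describes pooled RNA of αERKO glands lacking lesions. The paper is thus at odds with itself on the source of the αERKO array, and values from that array rest on its label.

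Values are the log2 of a probe's background-subtracted intensity over the median of all gene probes on its array, called the log2 level below. A value of 0 is the level of the median probe. Levels were compared for a given probe between arrays and never between genes, since probes differ in their response. The software's quality call "good" was used as the mark of detection. The call was good for between 68.4% and 74.2% of the 34967 gene probes over the 7 arrays, the lowest share being on the αERKO array, and the median intensity ran from 39.1 to 53.0. As a check of genotype, the Esr1 probe was good on the WT array with DMBA and on the Balb/c array with Vitamin D5 and on none of the other 5. On the αERKO array it was at least 1.36-fold lower than in WT glands with DMBA, but it was also not called good on 3 of the 5 WT and Balb/c arrays, so it does not check the αERKO label. The Esr2 probe was brightest on the βERKO array, at a log2 level of 0.87 and at least 6.69-fold above WT glands with DMBA. Of the other arrays, it was good only in WT glands at 24 days without DMBA (-0.55). A bright Esr2 signal is not what the label would give at face value. Whether the probe lies in the deleted part of Esr2 is not known here, so the signal does not settle the label. That array is therefore called the array labelled βERKO throughout, and directions drawn from it rest on the label.

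Promoter sequences are shown for Areg and Btc, chromosome 5 neighbours (the order there is Epgn, Ereg, Areg, Btc) that differed in how much they varied over the arrays. The 250 bases before the annotated start are printed from RefSeq (build GRCm38.p6), in the direction of transcription. For Areg this is chr5:91139349-91139598 on the plus strand and for Btc chr5:91402995-91403244 on the minus strand. Capitals mark a cAMP response element (TGACGTCA), a GC box (GGGCGG) and a TATA box (TATAAA) in Areg, and the core of the xenobiotic response element (GCGTG) in Btc.
Areg: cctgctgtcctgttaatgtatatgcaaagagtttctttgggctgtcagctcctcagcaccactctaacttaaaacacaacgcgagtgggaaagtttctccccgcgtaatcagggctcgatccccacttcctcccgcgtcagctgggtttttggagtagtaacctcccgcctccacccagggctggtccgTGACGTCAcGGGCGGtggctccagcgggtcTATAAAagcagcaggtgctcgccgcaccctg
Btc: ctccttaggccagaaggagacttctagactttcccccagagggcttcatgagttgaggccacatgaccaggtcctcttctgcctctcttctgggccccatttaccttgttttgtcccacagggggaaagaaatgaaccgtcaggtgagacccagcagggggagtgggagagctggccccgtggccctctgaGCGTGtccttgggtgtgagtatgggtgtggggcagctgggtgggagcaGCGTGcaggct

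Both strands were searched, and 6 of the members had a promoter entry. Ereg and Hbegf had none. The Areg motifs began 61 bases (cAMP response element), 52 bases (GC box) and 31 bases (TATA box) before the start. Among 32851 promoter windows of that length, 1.55% held the cAMP response element, 12.4% the TATA box and 32.7% the GC box. The GCGTG core lay 59 and 11 bases before the Btc start, and 28.2% of windows held it. The palindromic estrogen response element, in 0.064% of windows, and the AP-1 site TGANTCA, in 6.75%, were not found in either window. Some of these motifs also lay in members that varied little. Tgfa held the GC box (126 and 15 bases before the start) and the GCGTG core (222 bases), and Egfr held the GC box (9 bases). All of these are matches of letters and not measured binding.

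Of the members called good on all arrays, Ereg and Hbegf varied most. Epiregulin, encoded by Ereg, binds EGFR and ERBB4. Its log2 levels were 2.60 in WT glands at 10 days, 0.71 in WT glands at 24 days, 0.65 in WT glands at 24 days with DMBA, -0.12 in αERKO glands, 1.96 on the array labelled βERKO, 2.43 in Balb/c glands and 2.88 in Balb/c glands with Vitamin D5. The αERKO array was thus the lowest of the 7, and both C57 arrays at 24 days lay well below the 10-day and Balb/c arrays. Heparin-binding EGF, encoded by Hbegf, also binds both EGFR and ERBB4. Its log2 levels in the same order were 2.92, 2.45, 1.01, 0.24, 2.25, 2.37 and 3.17. The αERKO array was again lowest and the array of WT glands with DMBA next, while the other 5 lay above 2 on the log2 scale.

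Amphiregulin (Areg) had log2 levels of 3.16 in WT glands at 10 days, 3.66 in WT glands at 24 days, 2.84 with DMBA, 2.62 in αERKO glands, 3.66 on the array labelled βERKO, 2.35 in Balb/c glands and 3.34 in Balb/c glands with Vitamin D5. Here the αERKO array was not the lowest, since the Balb/c array without Vitamin D5 lay below it. Egf itself was near background. Its probe was called good on the αERKO array (log2 level -0.63), on the array labelled βERKO (-1.34) and in WT glands with DMBA (-1.78), and not on the other 4 arrays, where the measured values lay between -2.53 and -2.05. The corresponding background-subtracted intensities were 25.3, 16.7 and 15.0, where the lowest intensity called good on any array was 13.7 to 14.6.

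The remaining ligands moved little. Transforming growth factor α (Tgfa) ran from a log2 level of 0.43 in WT glands with DMBA to 1.05 in Balb/c glands with Vitamin D5, with αERKO at 0.58 and the array labelled βERKO at 0.63. Betacellulin (Btc) ran from 0.76 in WT glands at 24 days to 1.22 in WT glands with DMBA, with αERKO at 1.18 and the array labelled βERKO at 0.81.

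Of the receptors, Egfr had log2 levels of 1.95 in WT glands at 10 days, 1.63 in WT glands at 24 days, 2.08 with DMBA, 1.98 in αERKO glands, 2.24 on the array labelled βERKO, 1.71 in Balb/c glands and 2.22 in Balb/c glands with Vitamin D5. Erbb2, the partner receptor with no ligand of its own, had log2 levels of 1.94, 1.54, 1.90, 1.63, 1.15, 1.95 and 1.95 in that order. Its lowest value was on the array labelled βERKO, and the αERKO value lay inside the range of the WT and Balb/c arrays.

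**Figure D1:**
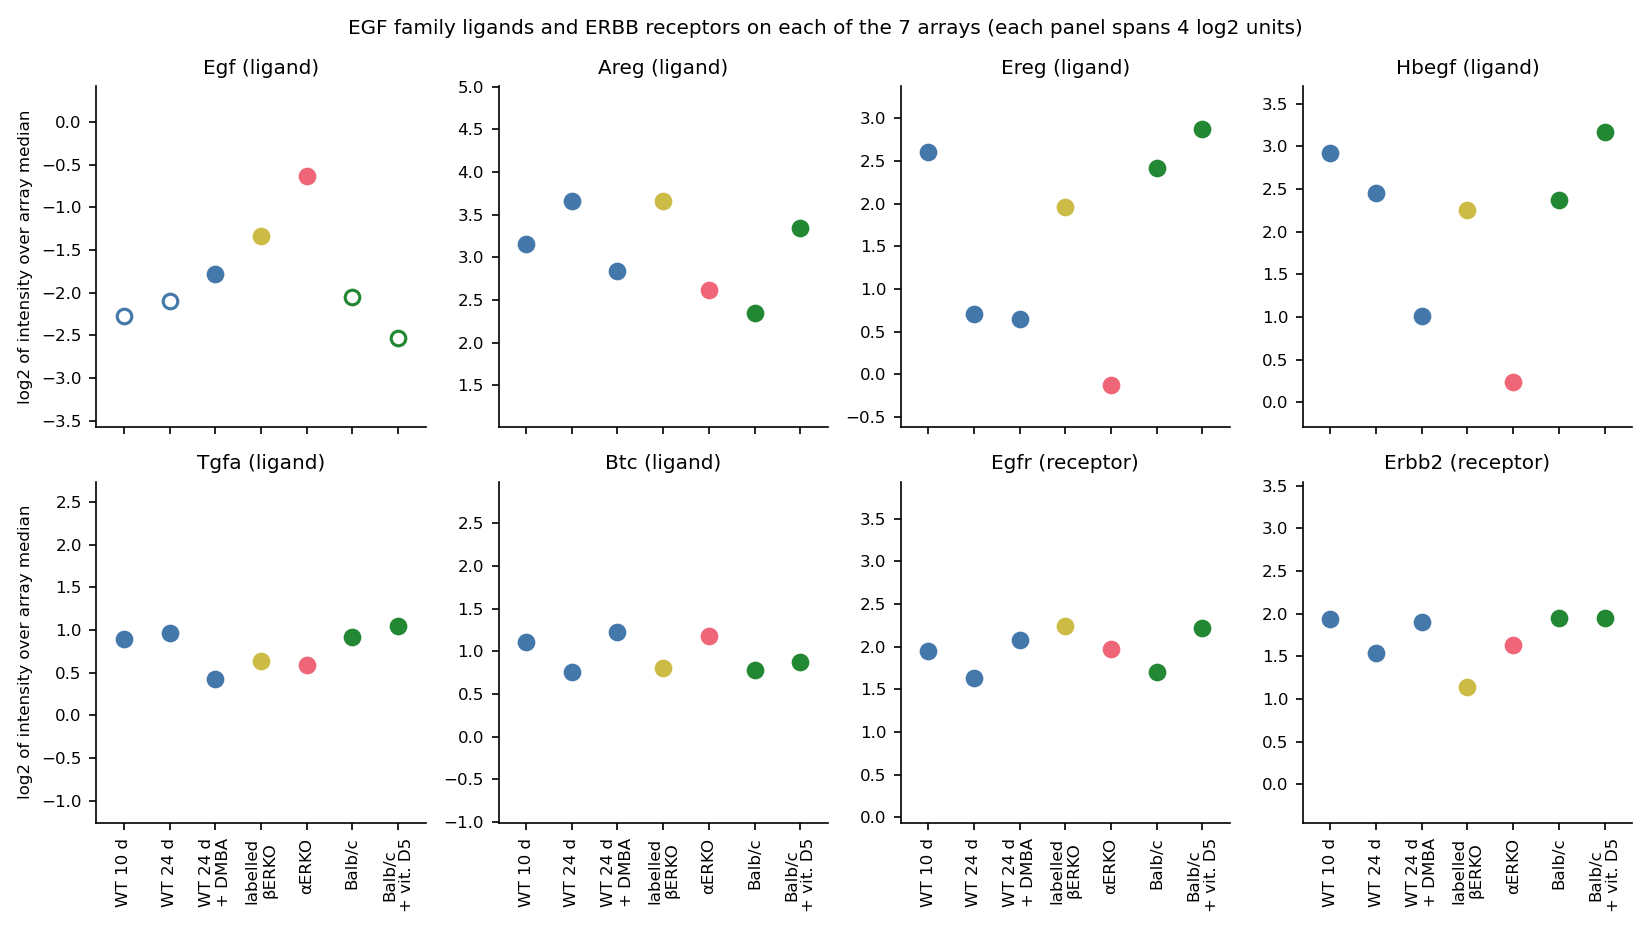
Log2 level (log2 of intensity over the array median) of each of the 8 measured genes on each of the 7 arrays, with 1 point per array; filled points were called good and open points were not, and every panel spans the same number of log2 units. Ereg and Hbegf spread over 3.00 and 2.93 log2 units with αERKO lowest, whereas Egfr and Btc spread over 0.61 and 0.47.

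Over the 7 arrays the range of log2 levels was 3.00 for Ereg and 2.93 for Hbegf, which exceeded 93.3% and 92.8% of the ranges of 9338 genes called good on all arrays, whose median range was 1.05. Areg had a range of 1.31, above 63.1% of them. The other 4 genes good on all arrays were below that median, with 0.80 for Erbb2 (above 33.3% of the ranges), 0.62 for Tgfa (19.9%), 0.61 for Egfr (19.2%) and 0.47 for Btc (9.77%). With no replicate arrays, the nearest measure of error is the SD of the log2 ratio between probes of the same accession, which was 0.59 for αERKO against WT glands with DMBA (531 pairs), 0.37 for WT against the array labelled βERKO (553 pairs), and from 0.23 to 0.31 for comparisons among WT or among Balb/c arrays. This SD covers differences between probes and no variation between animals or arrays. When the 7 levels of a gene were put in order, 4 of the 6 steps between neighbours were beyond the SD for that pair of arrays for Ereg and 4 for Hbegf, 3 for Egf (1 of them between arrays on which its probe was not called good), 2 for Areg, 1 each for Btc, Egfr and Erbb2, and 0 for Tgfa.

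The genes whose levels tracked Ereg most closely, by the root mean square difference of log2 levels centred on their mean over the 7 arrays, were Crabp2 (0.22 log2 units), which encodes a retinoic acid binding protein, Cdca7 (0.31), which encodes a nuclear protein of the cell cycle, and S100a8 (0.33), a calcium-binding protein of neutrophils and stressed epithelium. The median over the 9337 genes compared was 1.10. Hbegf ranked 68 by this measure (0.54) and Areg ranked 4954 (1.11), so that Areg was no closer to Ereg than a typical gene. The genes closest to Erbb2 were Casp2 (0.08), Lpcat1 (0.09) and Nfix (0.13), against a median of 0.49. These 7 points differ in genotype, strain, culture time and treatment, and the likeness is a description.

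**Figure D2:**
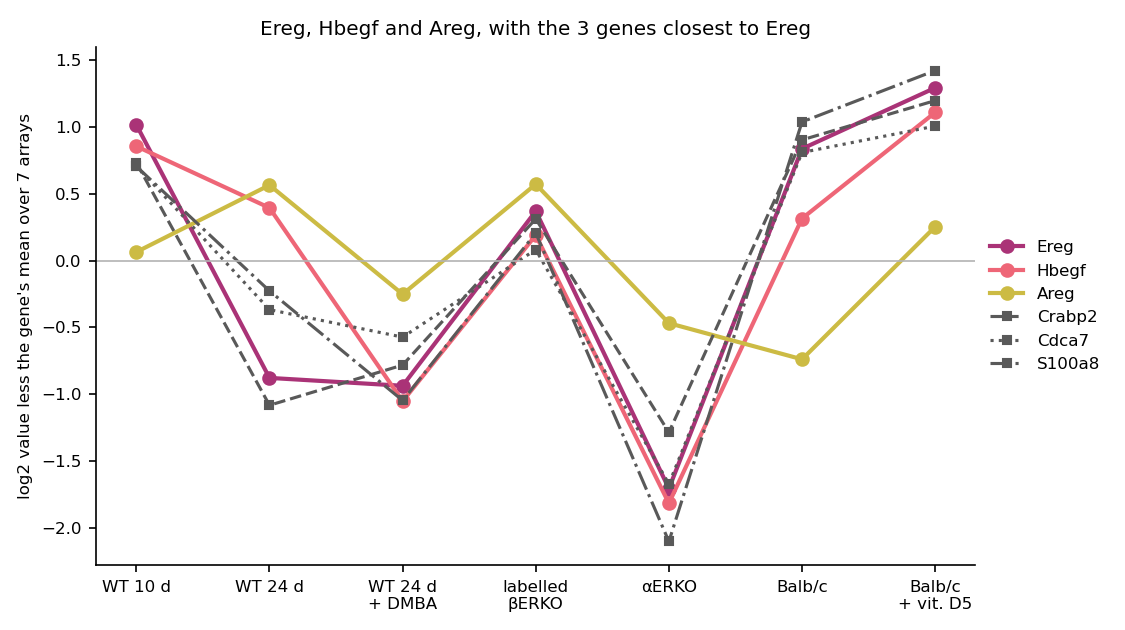
Log2 level less the gene's mean over the 7 arrays, for Ereg, Hbegf, Areg and the 3 genes closest to Ereg; lines join the arrays only to guide the eye. Crabp2, Cdca7 and S100a8 followed Ereg with root mean square differences of 0.22 to 0.33 log2 units, Hbegf differed from it mainly in WT glands at 24 days without DMBA, and Areg had a different order.

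In αERKO glands against WT glands with DMBA, Egf was higher and no other member passed 2-fold. Egf differed by 1.16 on the log2 scale (2.23-fold). Ereg was lower by a log2 ratio of -0.77 and Hbegf by -0.76, both beyond the SD between probes of 0.59 but under 2-fold. Areg, the ligand known as an ERα target, had a log2 ratio of -0.22 (1.16-fold lower), inside that SD. Estrogen is not named among the hormones of the culture medium, and the response of Areg to estrogen was not tested. Tgfa (0.16), Btc (-0.05), Egfr (-0.11) and Erbb2 (-0.27) also lay inside the SD of 0.59, and the signs of Areg, Btc and Egfr turned under cyclic loess. Thus 1 of 8 members passed 2-fold, where 25.8% of the 27812 gene probes that passed the filter (a good call on either array) did so. The median log2 ratio of the members was -0.16, against -0.09 for all these probes. Under cyclic loess scaling and under normexp background correction the Egf ratio no longer passed 2-fold, leaving 0 members over it.

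The αERKO array differed from the WT array in its cell type markers, and the values of the members stand beside that. In bulk tissue, fewer cells of a type and less RNA per cell cannot be told apart. Basal epithelial markers were lower for 5 of 6 (Krt17, Krt14, Acta2, Krt5 and Trp63), with a summed level over the array median of 107 against 273 in WT glands with DMBA and 273 to 835 over the WT and Balb/c arrays. Luminal epithelial markers were lower for 3 of 8 (Elf5, Krt8 and Cldn7), with a summed level of 403 against 517. Macrophage markers were lower for 3 of 3 (64.3 against 300.3) and lymphocyte markers higher for 3 of the 5 that passed the filter (41.5 against 10.4). Skeletal muscle markers were higher for all 7 tested, with a summed level of 1811 against 9.55 in WT glands with DMBA, 6.59 to 9.55 over the WT and Balb/c arrays and 47.1 on the array labelled βERKO. Fibroblast markers were higher for 2 of 6 (401 against 203), adipocyte markers for 1 of 5 and Schwann cell markers for 1 of 4. Of the squamous markers that passed the filter, 2 of 5 were higher and 1 lower. Of the endothelial markers, 1 of 4 was higher and 2 lower. Over all gene probes 14.1% were over 2-fold lower and 11.7% higher. The part of these cell types in the values of Ereg, Hbegf and Egf was not tested.

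On the array labelled βERKO, Ereg and Hbegf were higher than in WT glands with DMBA, by 1.31 and 1.24 on the log2 scale (2.48-fold and 2.37-fold). These were 2 of the 8 members over 2-fold, both higher, where 15.3% of 27469 gene probes passed 2-fold, with 6.96% higher and 8.37% lower. Areg was higher by 0.82 and Egf by 0.44, and Erbb2 was lower by a log2 ratio of -0.75, all under 2-fold and beyond the SD between probes of 0.37. Tgfa (0.21) and Egfr (0.16) lay inside it and Btc (-0.41) just outside. Beside these values, luminal markers had 0 of 8 over 2-fold, basal markers 2 higher and 1 lower of 6, squamous epithelial markers 3 higher of 5 that passed the filter and fibroblast markers 5 lower of 6, with a summed fibroblast level of 65.0 against 203. Endothelial markers were lower for 4 of the 4 that passed the filter (12.3 against 41.4), macrophage markers lower for 2 of 3 and skeletal muscle markers higher for 4 of 5. Their part in the members' values was not tested.

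Of the 6 comparisons described here, that between αERKO glands and the array labelled βERKO had the largest differences for Ereg, Hbegf and Areg. Against the array labelled βERKO, αERKO glands had Ereg lower by a log2 ratio of -2.08 (4.22-fold), Hbegf by -2.01 (4.02-fold) and Areg by -1.04 (2.06-fold). These 3 of 8 members were all lower, beside 30.1% of 27026 gene probes over 2-fold, with 16.6% lower and 13.5% higher. Of the probes over 2-fold, 44.9% were higher in αERKO glands, and 55.8% were under 75th percentile scaling. Egf was higher by 0.71, and Erbb2 (0.49), Tgfa (-0.05), Btc (0.37) and Egfr (-0.26) lay inside the SD between probes of 0.56. This comparison and the pair above share their arrays, so the ratios are not independent of each other. In the same comparison luminal markers were lower for 5 of 8, basal markers for 4 of 6, with 1 higher, and squamous markers for 3 of the 5 that passed the filter. Skeletal muscle markers were higher for 7 of 7 and fibroblast markers for 6 of 6, with median log2 ratios of 7.62 and 2.16. The part of these cell types in the members' values was not tested.

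**Figure D3:**
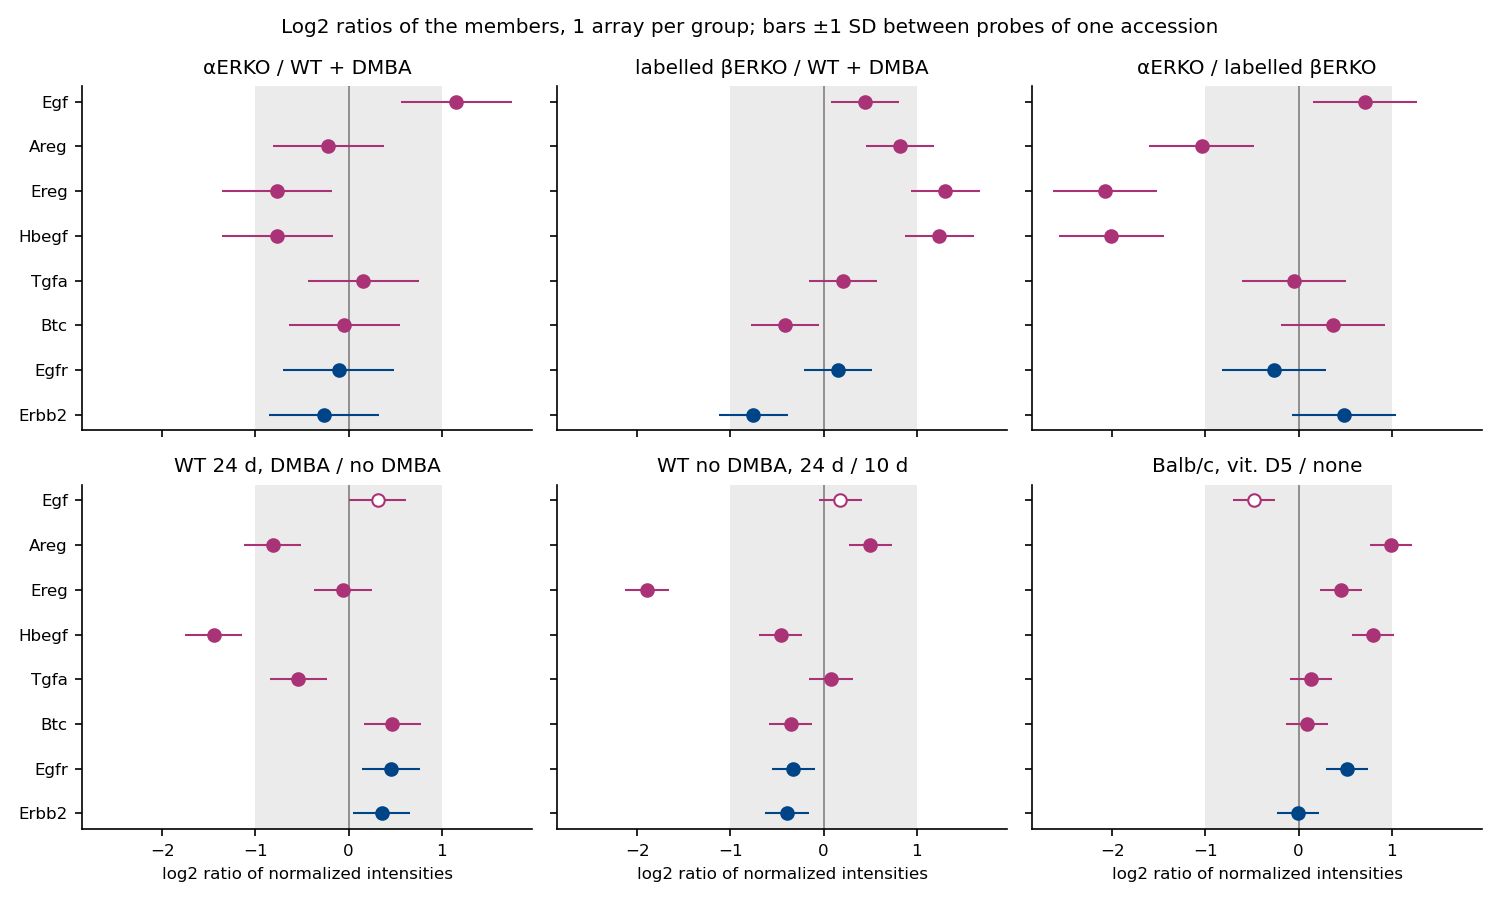
Log2 ratio of each member in 6 comparisons of 1 array with 1 array, with ligands in purple and receptors in blue; bars are ±1 SD of the log2 ratio between probes of the same accession, open points were not called good on both arrays, and the grey band marks ratios within 2-fold. For αERKO against the array labelled βERKO, Ereg (-2.08), Hbegf (-2.01) and Areg (-1.04) lay to the left of the band, and Egfr and Erbb2 lay within the band in all 6 panels.

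The 5 WT and Balb/c arrays gave a wider frame than the WT array with DMBA alone. The αERKO array lay below all 5 for Ereg (by 0.77 on the log2 scale) and Hbegf (by 0.76), above all 5 for Egf (by 1.16) and inside their range for the other 5 members. For Ereg, Hbegf and Egf the nearest of the 5 arrays was that of WT glands with DMBA. These gaps therefore repeat the ratios against that array given above. Over all gene probes, 34.5% lay below and 23.4% above all 5 on the αERKO array. The array labelled βERKO lay below all 5 for Erbb2 (by 0.40) and above all 5 for Egf (by 0.44), Areg (by 0.01) and Egfr (by 0.015), beside 16.3% of all probes below and 18.6% above. The Areg and Egfr positions were within the range under quantile and 75th percentile scaling and under normexp, and the αERKO value of Btc lay above it under quantile, 75th percentile and cyclic loess scaling. A member's place outside the frame on either array was thus not rare among probes.

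DMBA exposure was compared in C57 glands at 24 days. For the array with DMBA the paper states pretreatment with EGF and progesterone. For the array without DMBA the only source is the sample description, which names estrogen and progesterone. On these sources DMBA and pretreatment cannot be told apart, here and in the counts with and without DMBA given below. Hbegf was lower with DMBA by a log2 ratio of -1.45 (2.73-fold), from a log2 level of 2.45 to 1.01. It was the only member over 2-fold, 1 of 8, where 18.6% of 27808 gene probes passed 2-fold, with 8.46% lower and 10.1% higher. Of the probes over 2-fold, 54.5% were higher with DMBA, and 64.2% were under cyclic loess. Areg was lower by -0.82 and Tgfa by -0.54, and Btc (0.47), Egfr (0.45) and Erbb2 (0.36) were higher, all under 2-fold and beyond the SD between probes of 0.31. Ereg was at 0.65 with and 0.71 without DMBA. The array with DMBA also had higher fibroblast markers (6 of 6 over 2-fold, summed level 203 against 12.4), endothelial markers (4 of the 4 that passed the filter, 41.4 against 7.52) and adipocyte markers (3 of 5, 1450 against 954), and lower luminal markers (3 of 8, 517 against 951) and squamous markers (3 of the 5 that passed the filter). Their part in the Hbegf value was not tested.

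Culture time was compared in C57 glands without DMBA. By the protocol, the 10-day glands ended in medium with insulin, prolactin, aldosterone and hydrocortisone, while the 24-day glands ended with 14 days in insulin alone. Culture time and this change of medium cannot be told apart, here and in the counts from 10 to 24 days given below. Ereg was lower at 24 days than at 10 days by a log2 ratio of -1.90 (3.72-fold). It was again the only member over 2-fold, 1 of the 7 that passed the filter, beside 12.4% of 27173 gene probes over 2-fold, with 6.34% lower and 6.05% higher. Areg was higher by 0.50 and Hbegf lower by -0.46, and Erbb2 (-0.39), Btc (-0.35) and Egfr (-0.33) were lower, all beyond the SD between probes of 0.23. Basal markers were lower at 24 days for 4 of 6 and higher for 1 (summed level 282 against 730) and adipocyte markers higher for 5 of 5 (954 against 292), and squamous markers were lower for 3 of the 6 that passed the filter. Their part in the Ereg value was not tested.

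With Vitamin D5, in Balb/c glands, 0 of the 7 members that passed the filter were over 2-fold, beside 12.2% of 28418 gene probes (5.12% higher and 7.06% lower). Areg came nearest, higher by 0.99 on the log2 scale (1.99-fold), from a log2 level of 2.35 to 3.34. Hbegf was higher by 0.79, Egfr by 0.52 and Ereg by 0.46, all beyond the SD between probes of 0.23, and Tgfa (0.13), Btc (0.09) and Erbb2 (0.00) lay inside it. Squamous epithelial markers were higher with Vitamin D5 for 5 of the 6 that passed the filter, with a summed level of 82.4 against 27.9, and fibroblast markers were higher for 3 of 6. Their part in these values was not tested.

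Among relatives of the members, Nrg4 and Nrg3 had matched probes, while Epgn, Nrg2 and Erbb4 had none. Neuregulin 4, a ligand of ERBB4 made by fat tissue, varied more than any member. Its log2 levels were 0.01 in WT glands at 10 days, 2.67 in WT glands at 24 days, 3.78 with DMBA, 6.48 in αERKO glands, 4.82 on the array labelled βERKO, -0.70 in Balb/c glands and -0.60 in Balb/c glands with Vitamin D5. Both Balb/c arrays and the 10-day array were low, while αERKO glands and the array labelled βERKO were high. Nrg4 was 6.52-fold higher in αERKO glands than in WT glands with DMBA and 6.33-fold higher at 24 than at 10 days. The summed level of adipocyte markers was 2319 in αERKO glands and 1468 on the array labelled βERKO. It was 1450, 954 and 292 in WT glands with DMBA, at 24 days and at 10 days, and 255 and 167 in Balb/c glands without and with Vitamin D5. Between αERKO glands and WT glands with DMBA only Cfd of these markers passed 2-fold (log2 ratio 2.03), and the others had log2 ratios from 0.01 to 0.47. The part of the adipocyte markers in the Nrg4 values was not tested. Nrg3 was higher in αERKO glands than in WT glands with DMBA by 1.13 on the log2 scale.

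Downstream of the receptors, the genes whose transcripts EGF is known to induce were mostly lower in αERKO glands. All 15 genes of this list had a probe and 14 passed the filter. Against WT glands with DMBA, 11 were over 2-fold lower and 0 higher, with a median log2 ratio of -1.28 against -0.09 for all probes. Of all gene probes in this comparison 14.1% were over 2-fold lower and 11.7% higher. Fosl1, an AP-1 subunit, was at least 9.11-fold lower, Plaur, the urokinase receptor, had a log2 ratio of -2.21, Ccnd1 (cyclin D1) was at least 2.32-fold lower and Fos had a log2 ratio of -1.59. Fos, Jun, Srf and cyclin D were singled out from these arrays in the paper, so the direction of these genes is not independent evidence. Jun (-0.34) and Srf (-0.55) were under 2-fold in this comparison. On the array labelled βERKO, 4 of 14 were higher than in WT glands and 0 lower, beside 6.96% of all probes higher, with Fosl1 (log2 ratio 2.54) and Ier3, an early response gene (2.52), ahead of Plaur (1.17) and Ccnd1 (1.05), and the list median was 0.82 against 0.09. Against the array labelled βERKO, 12 of 14 were lower in αERKO glands, with a median log2 ratio of -2.03, beside 16.6% of all probes lower and a median of -0.18.

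The same list was lower in WT glands with DMBA than without, with 5 of 14 over 2-fold lower and 1 higher, beside 8.46% and 10.1% of all probes, and a median of -0.77 against -0.13. Ier3 (-2.61), Fosl1 (-2.45), Plaur (-1.72) and Atf3 (-1.31) had the largest log2 ratios, and Egr2 was the gene that was higher (1.29). From 10 to 24 days 2 were higher (Atf3, 1.18, and Fosl1, 1.02) and 1 lower (Ccnd1, -1.88), beside 6.05% and 6.34% of all probes. With Vitamin D5, 2 of 15 were higher, beside 5.12% of all probes. They were Fos (1.36) and Egr3, for which only a bound of 1.47-fold could be given. The marker lists given above for each comparison stand beside these counts, and their part in them was not tested. For DMBA the possible difference in pretreatment (EGF or estrogen) also stands beside them.

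Feedback inhibitors of ERBB signaling had a probe for 16 of 20 genes, of which 15 passed the filter. In αERKO glands 5 were lower than in WT glands with DMBA and 0 higher, with a median log2 ratio of -0.26, beside 14.1% of all probes lower and a median of -0.09. They were Rasa1 (-1.59), a GTPase activator that switches off RAS, Errfi1 (-1.55), a direct inhibitor of EGFR, Cblc (-1.15), a ubiquitin ligase, Dusp6 (-1.08), a phosphatase of ERK, and Spred1, for which the bound was 1.93-fold. On the array labelled βERKO 1 was higher (Socs4, 1.46) and 0 lower, beside 6.96% of all probes higher. Against the array labelled βERKO, 9 were lower and 1 higher in αERKO glands, beside 16.6% and 13.5% of all probes, with Socs4 (-2.43) and Cblc (-1.98) showing the largest log2 ratios. With DMBA 2 were lower, again Socs4 (-2.30) and Cblc (-1.29), beside 8.46% of all probes. From 10 to 24 days 1 was higher (Socs4, 1.00), beside 6.05% of all probes. With Vitamin D5 none of the 15 passed 2-fold, beside 12.2% of all probes.

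Signal transducers downstream of the receptors had a probe for 18 of 27 genes, of which 17 passed the filter. In αERKO glands 5 were lower than in WT glands with DMBA and 1 higher, with a median log2 ratio of -0.67, beside 14.1% of all probes lower and 11.7% higher. Stat3 (-2.66), Mapk3 (-1.70), which encodes ERK1, and Gab1 (-1.50), a docking protein, were the lowest, and Akt2 (1.395), a kinase abundant in muscle and fat, was higher. On the array labelled βERKO 1 of 17 was higher (Pik3cb, 1.23), which is near the 6.96% of all probes. Against the array labelled βERKO, 8 were lower and 1 higher in αERKO glands, beside 16.6% and 13.5% of all probes. The median log2 ratio there was -0.82. With DMBA 1 of 17 was lower (Pik3cb, -1.36), beside 8.46% of all probes. In the comparisons of culture time and of Vitamin D5 0 were over 2-fold, beside 12.4% and 12.2% of all probes.

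Ligand release was covered by 7 of 10 genes with a probe. In αERKO glands 4 were lower than in WT glands with DMBA and 0 higher, with a median log2 ratio of -1.01, beside 14.1% of all probes lower. Adam10 (-1.78) and Adam17 (-1.63), the main sheddases of the EGF ligands, Adam12 (-1.295) and Rhbdf2, which carries ADAM17 to the cell surface, made up this count. The Rhbdf2 spot was not called good in αERKO glands, although its log2 level there was 2.83, well above the array median. Its 2.02-fold lower value is therefore the plain ratio and no firm bound. On the array labelled βERKO 1 was lower (Adam12, -1.53), beside 8.37% of all probes. Against that array, 3 were lower and 0 higher in αERKO glands, with a median log2 ratio of -0.88, beside 16.6% of all probes lower. With DMBA 3 were higher, beside 10.1% of all probes, namely Adam12 (1.78), Timp3 (1.64), an inhibitor of the sheddases, and Adam15 (1.13), beside the higher fibroblast and endothelial markers of that array. From 10 to 24 days 1 was higher (Adam12, at least 2.05-fold) and 1 lower (Timp3, -1.01), beside 6.05% and 6.34% of all probes. The cell type markers given above also stand beside the counts of feedback inhibitors, signal transducers and ligand release, and their part was not tested.

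**Figure D4:**
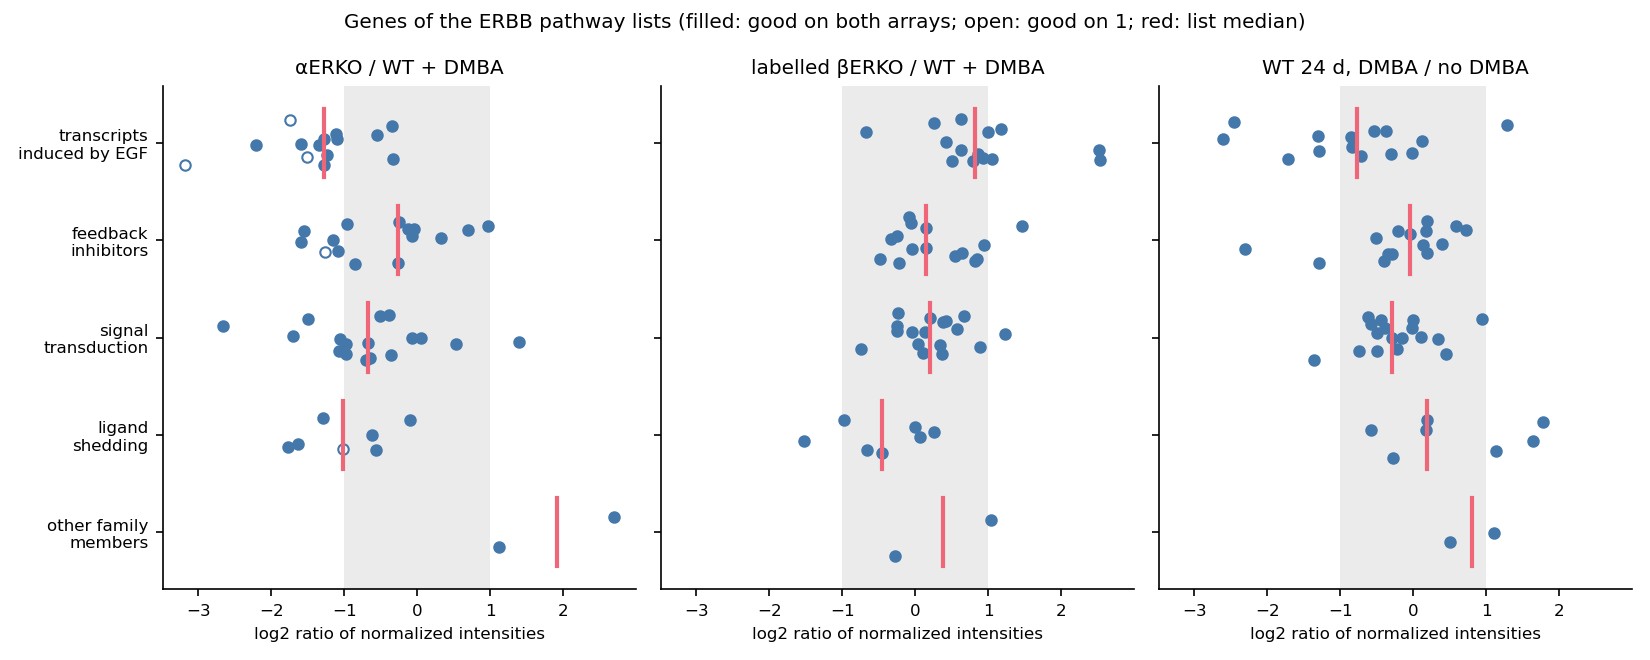
Log2 ratio of each gene of 5 lists around the ERBB pathway in 3 comparisons, with 1 point per gene; filled points were good on both arrays and open points on 1, the red line is the list median, and the grey band marks ratios within 2-fold. The EGF-induced transcripts had medians of -1.28, 0.82 and -0.77 in αERKO, on the array labelled βERKO and with DMBA.

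Progesterone receptor (Pgr) and the G protein-coupled estrogen receptor (Gper1) were named by the study as genes linking estrogen and EGF. The paper compared mice given EGF with untreated mice of the same genotype, by PCR for Pgr and by immunostaining for the Gper1 protein. It reports a rise with EGF in αERKO mice for both. No pair of arrays here makes that comparison, so the values below do not bear on it. Pgr had log2 levels of 0.95 in αERKO glands, 0.09 on the array labelled βERKO and 0.69 in WT glands with DMBA. Gper1 had log2 levels of 0.40, -0.13 and 0.11 on these arrays. Neither passed 2-fold in any of the 3 comparisons between them, beside 15.3% to 30.1% of all probes. On the remaining arrays the log2 levels ran from -0.70 to -0.03 for Pgr and from -0.55 to -0.22 for Gper1. The αERKO value was thus the highest for both genes.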

How the data were processed

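RNA of 7 groups of cultured mammary glands was measured, with 1 array per group. The authors hybridized biotin-labelled cRNA to CodeLink arrays, scanned them and processed the images with the CodeLink Expression Analysis software. The deposited intensity of a spot is its mean signal less its median local background, with a quality call, and a normalized intensity was also deposited. A deposited series table was not used, since its running numbers match no probe column of the scanner tables.

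Each of the 34967 gene probe intensities was scaled to its array's gene probe median, as in the study's methods, and 320 negative and 300 positive control spots were left out. Before taking log2, non-positive values were set to the smallest positive value of the array. Of 15553 probes carrying a RefSeq accession, 14763 were found in RefSeq's mouse gene table, giving 13971 symbols. Each member had 1 probe; other genes are given by their brightest probe (mean log2 over the arrays). A probe passed the filter where either of the arrays compared called it good, and passed 2-fold where the absolute log2 ratio was over 1. For a probe not good on 1 array only a bound is given, against the higher of that array's lowest good value and the probe's own; it was still counted by its ratio, and a spot can miss the good call for reasons other than low signal. The number of arrays limits the precision.

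All members are named. Of each other list at most 4 genes over 2-fold are named per comparison, those with the largest absolute log2 ratio; a further gene, where it completes a count, was chosen after its values were seen. Esr1, Esr2 and the 3 genes most like the ligand and the receptor with the widest range are also named. The members and the lists, which were written by hand from general knowledge, were chosen with earlier results of these data known. Alternatives were quantile normalization, the 75th percentile, cyclic loess, the deposited normalized intensities, normexp with an offset of 50, a floor at the lowest good value, other filters and a 3-fold threshold. The calling step was run on simulated data, with changes well above the threshold and noise below the SD between probes seen here. That run checks the working of the step and not the accuracy of the calls. R 4.3.3 with limma 3.58.1 and Python 3.11.15 with pandas 2.3.3, numpy 2.4.6 and matplotlib 3.10.9 were used.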

Additional observations from a re-analysis of the deposited data

How the results depend on the processing

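With 1 array per group no replicate could be left out and no test was run. No paired analysis was possible because every group has a single array and no result comes from a test. Of the counts of members over 2-fold, 54 alternative values were within 1.5 times the value reported and 6 were not. Those 6 were αERKO against WT glands with DMBA, where 0 members passed 2-fold under cyclic loess, 0 under normexp and 0 passed at 3-fold; the array labelled βERKO against WT, with 0 under normexp and 0 at 3-fold; and DMBA against no DMBA, with 0 at 3-fold. Of the log2 ratios of single members 326 moved by less than the SD between probes and 10 by more, and none over 2-fold changed sign. Ratios near 0 did change sign, among them Areg, Btc and Egfr in αERKO against WT under cyclic loess. The share of all gene probes over 2-fold ran from 0.623% to 11.9% under normexp over the 6 comparisons, against 12.2% to 30.1% as reported, and from 2.19% to 22.2% for probes good on both arrays; the cause was not tested. Of gene probes over 2-fold between αERKO and the array labelled βERKO, 44.9% were higher in αERKO as reported and 55.8% under the 75th percentile, which moved the median log2 ratio of all probes from -0.18 to 0.00. For DMBA against no DMBA the share higher was 54.5% as reported and 64.2% under cyclic loess. The pathway lists were recomputed with alternatives chosen after seeing the data: 552 counts stayed within 1.5 times and 96 did not, and the 11 EGF-induced transcripts lower in αERKO against WT became 6 under normexp and 4 at 3-fold. The mean over probes of a gene changed nothing for the members, which have 1 probe each, and the series table was not run.

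Egf was close to the lowest good intensity in WT glands with DMBA (15.0 against 14.1) and on the array labelled βERKO (16.7 against 13.7), and further above it in αERKO glands (25.3 against 14.1).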
